A study of Ovis aries and Mus musculus with 10 samples.

Results

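miR-21, listed on the array as mmu-miR-21, was followed through the mammary cycle of sheep and mouse. It was found by its name, as 1 of the 567 mouse miRNAs that the array carried, and its values on all 10 arrays are given here as a level, as a rank among miRNAs and as a share of the summed miRNA signal. The study hybridised total RNA of whole mammary gland to single-colour arrays made for mouse miRNAs, with 1 array for each stage. The sheep were ewes in cycle (day 15), in gestation (days 14, 64 and 125) or in lactation (day 60). The mice, of the outbred CD1 stock, were virgin, in gestation (days 10 and 17) or in lactation (days 2 and 10). No animal was treated. The labels do not say how many animals stand behind an array, and no stage had a replicate array, so no p-value measures a spread between replicates. The p-values rest on the spread between different days or stages, and some also on how far stage differences vary between the species.

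miR-21 lies within the gene VMP1, and its transcription can be raised by STAT3, NF-kB and AP-1, while SMAD proteins acting downstream of TGF-beta promote the processing of its hairpin. Its known targets include PDCD4, an inhibitor of translation and of transformation, and SPRY proteins, which dampen receptor tyrosine kinase signalling. It is abundant in many epithelial and stromal cells and is among the miRNAs most often found raised in carcinoma, including that of the breast. The mammary gland around it is rebuilt during this cycle, from ducts in fat and connective tissue to a gland filled with milk-secreting alveoli. In whole tissue, fewer cells of a type and less RNA per cell cannot be told apart.

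The array measured miR-21 with 2 probes of 10 spots each. The file's target windows for both start at mouse chr11 position 86397622 of build mm9 and end at 86397641 for the longer probe and at 86397640 for the shorter probe, so they differ by 1 base at 1 end. In the RefSeq annotation of the sheep genome, the sheep gene MIR21 also lies within VMP1, between TUBD1 and PTRH2. All spots of both probes were well above background on all 10 arrays and none was saturated, and the software marked 0 to 2 of the 20 spots of an array as outliers. The longer probe was 6.12 to 8.94 times as bright as the shorter probe. How well either probe matches the sheep miRNA was not examined.

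In sheep, the level of miR-21 was highest at gestation day 14 and lowest in lactation under the main scaling. Levels are mean signals of both probes, divided on each array by the 75th percentile of the 94 miRNAs that were detected on all 10 arrays, on the log2 scale. The level was 2.64 in cycle, 3.26 at gestation day 14, 2.59 at gestation day 64, 2.74 at gestation day 125 and 2.19 in lactation. Cycle and the later days of gestation thus lay close together, with gestation day 14 above them and lactation below them. The gap between the highest and the lowest level, 1.07 on the log2 scale, was 2.10-fold, and 60 of the 94 shared miRNAs had a wider range over the same 5 arrays, with a median range of 1.32. Before scaling, the signal was 12428 for the ewes in cycle, 17489, 9422 and 6278 for those in gestation, in day order, and 3590 for those in lactation.

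In mouse, under the main scaling, the level at every stage sampled was lower than at the stage before it. It was 2.63 in virgin gland, 2.50 at gestation day 10 and 1.63 at gestation day 17, then 1.53 at lactation day 2 and 1.00 at lactation day 10. Both lactation arrays thus lay below both gestation arrays and the virgin array. The range was 1.63 on the log2 scale, or 3.10-fold, and 32 of the 94 shared miRNAs had a wider one, with a median range of 1.12. Before scaling, the signal was 3700 in virgin gland, 3961 and 2902 in gestation, and 1136 and 491 in lactation.

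**Figure D1:**
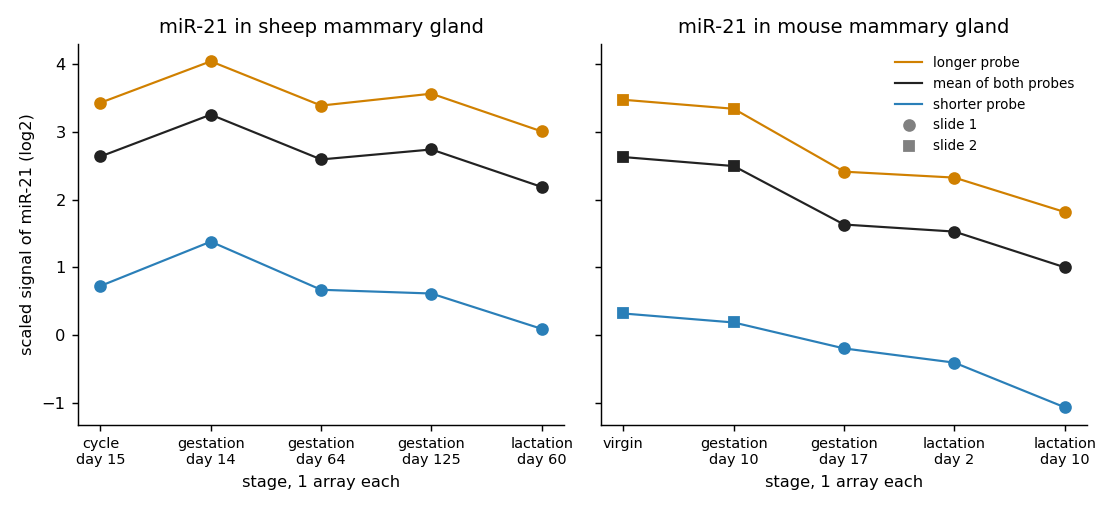
Scaled signal of miR-21 (log2, vertical axis) at each stage (horizontal axis, 1 array each) in sheep and mouse, for the longer probe, the shorter probe and the mean of both, with circles for arrays on slide 1 and squares for slide 2. The mean peaks at 3.26 in sheep at gestation day 14 and runs down from 2.63 to 1.00 in mouse, and the 2 probes part most between mouse gestation days 10 and 17 (-0.93 and -0.38) and between sheep gestation days 64 and 125 (0.18 and -0.06).

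The steps between neighbouring stages differed in size and in how the probes agreed on them. Each step sets 1 array against 1 array and has no replicate check, and the standard errors that follow cover the spread between spots only. In sheep, the level at gestation day 14 was 0.62 ± 0.02 above that in cycle, a 1.54-fold difference, and 4 of the 94 shared miRNAs had a more positive step. This step depended on the scaling, as it was 0.05 with the percentile over all miRNAs and -0.20 in the authors' deposited table, where gestation day 125 at 10539 and cycle at 7288 lay above day 14 at 6330. The next step, to gestation day 64, was -0.66 ± 0.02, where 83 of 94 had a more positive step, and that from gestation day 125 to lactation was -0.55 ± 0.01, where 64 of 94 did. The step of 0.15 ± 0.02 between gestation days 64 and 125 was 0.18 by the longer probe and -0.06 by the shorter probe, so its direction is not settled.

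In mouse, the widest step was between gestation days 10 and 17, at -0.86 ± 0.02 on the log2 scale. It was -0.93 by the longer probe and -0.38 by the shorter probe, and 86 of the 94 shared miRNAs had a more positive step. This step crossed from slide 2, which held the virgin and gestation day 10 arrays, to slide 1, which held the other 8 arrays, and in mouse the slide and these early stages cannot be told apart. The step from virgin gland to gestation day 10 was -0.13 ± 0.01, the step into lactation day 2 was -0.10 ± 0.03 and the step from there to lactation day 10 was -0.53 ± 0.03. Both probes gave the same direction in each of these 3 steps, but each step turned under another setting. The step from virgin gland was 0.10 without scaling. The step into lactation day 2 was 0.34 in the authors' deposited table and 0.10 with the brightest probe of each miRNA. The step to lactation day 10 was 0.15 in the authors' deposited table.

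Ordered over both species, the level ran from sheep gestation day 14 through sheep gestation day 125, sheep cycle, mouse virgin, sheep gestation day 64, mouse gestation day 10, sheep lactation, mouse gestation day 17 and mouse lactation day 2 to mouse lactation day 10. Sheep in cycle and virgin mice were 0.0083 apart, less than the error between spots of 0.010, and so did not differ even by that measure. Among the places from the second to the fifth, gaps were 0.0083 to 0.10, and the 2 probes gave opposite orders for each pair of neighbours. The gaps at both ends were larger, with 0.52 between the top 2 arrays and 0.53 between the bottom 2.

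miR-21 was among the brightest miRNAs of the gland outside mouse lactation. Signals of different probes also depend on labelling and hybridisation, so ranks and shares describe brightness on the array and not numbers of molecules. In sheep, its rank among the 567 miRNAs was 3 in cycle, 1 at gestation day 14, 3 at gestation days 64 and 125, and 4 in lactation. In mouse, it ranked 1 in virgin gland, 3 at gestation day 10 and 4 at gestation day 17, but 8 at lactation day 2 and 15 at lactation day 10. The same ranks were obtained from the total signal that the scanner software gives for each miRNA. The authors' deposited table is that total signal times a constant for each array, so its ranks, also the same, add no separate check. Taken from the longer probe alone, miR-21 would rank 1 or 2 on 9 arrays and 10 at mouse lactation day 10, and from the shorter probe alone it would rank between 5 and 43.

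The share of the summed mouse miRNA signal was, like the level, highest at gestation day 14 in sheep and in virgin gland in mouse, and lowest in lactation. In sheep, miR-21 held 7.82% of it in cycle, 12.2% at gestation day 14, 6.97% at gestation day 64, 7.15% at gestation day 125 and 5.31% in lactation. In mouse, it held 7.57% in virgin gland, 7.02% at gestation day 10, 3.95% at gestation day 17, 3.02% at lactation day 2 and 1.79% at lactation day 10. Within each species every lactation array had a lower share than every other array, except that with normexp background correction the share was 3.47% in sheep in cycle against 3.51% in sheep lactation. The lactation share of sheep nevertheless lay above the share of mouse gestation day 17.

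**Figure D2:**
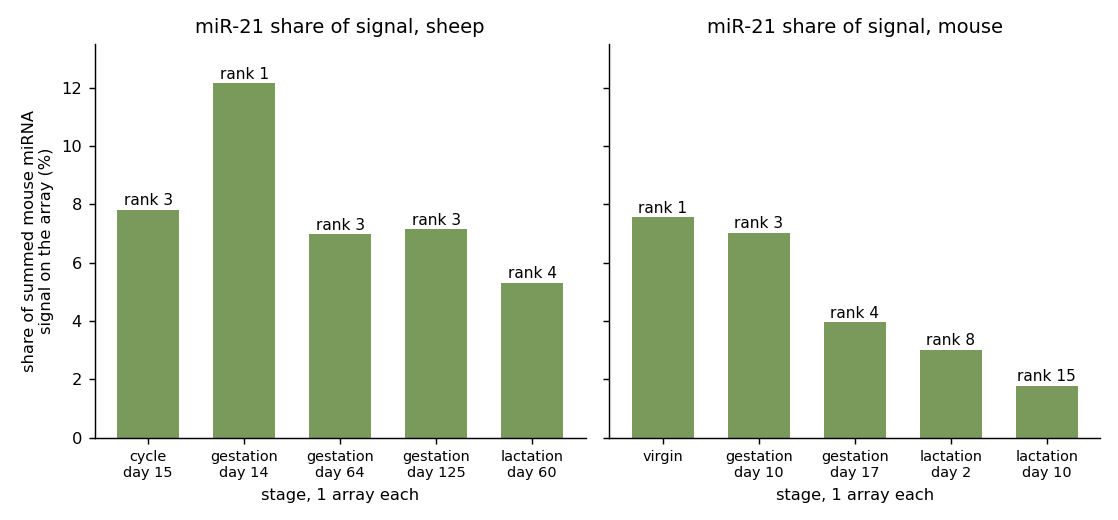
Share of the summed mouse miRNA signal held by miR-21 (%, vertical axis) on each array, in stage order (horizontal axis) for sheep and mouse, with the rank of miR-21 among the 567 miRNAs above each bar. Shares run from 12.2% at sheep gestation day 14 to 5.31% in sheep lactation, and from 7.57% in virgin mice to 1.79% at mouse lactation day 10, where the rank is 15.

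The differences in share did not pass exact permutation tests after adjustment over the 3 comparisons made. The share was 7.88% ± 2.56 (SD, n = 5) in sheep and 4.67% ± 2.52 (SD, n = 5) in mouse, a difference of 3.21 percentage points (two-sided exact permutation test, p = 0.0794, adjusted p = 0.119, smallest possible p 0.00794). Lactation arrays had 3.37% ± 1.79 (SD, n = 3), gestation arrays 7.45% ± 2.96 (SD, n = 5) and arrays of animals not pregnant 7.69% ± 0.18 (SD, n = 2). With labels permuted within each species, lactation differed from gestation by -3.27 percentage points (exact permutation test, two-sided, p = 0.167, adjusted p = 0.167, smallest possible p 0.0417). Lactation differed from all other stages by -3.49 percentage points (exact permutation test, two-sided, p = 0.06, adjusted p = 0.119, smallest possible p 0.02). Without sheep gestation replicate 2, the array of day 14, the difference between the species was 2.14 percentage points.

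The miRNAs that were brighter than miR-21 were mostly let-7b, let-7a, let-7c and miR-720. The let-7 family holds back proliferation and fetal gene programmes, and what the array calls miR-720 is now regarded as a fragment of a transfer RNA. let-7b was among the 5 brightest on all 10 arrays and the brightest on 4, miR-720 was among them on 7 and the brightest on 4, and miR-21 was among them on 8 and the brightest on 2. let-7a was among the 5 brightest on 7 arrays and let-7c on 4, all of the latter from mouse. Single places went to miR-125b-5p on 3 sheep arrays, to miR-26a on 2 sheep arrays, to the milk-abundant miR-148a on both mouse lactation arrays and to the epithelial miR-200c on 1 lactation array of each species. miR-200b, miR-30a, miR-1224, let-7f and miR-451, the last a red cell miRNA that ranked next to miR-21 in virgin mice, each took 1 place.

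miR-21 stood at 88.3%, 100%, 68.3%, 73.8% and 50.8% of the brightest miRNA on the sheep arrays in stage order, and at 100%, 95.4%, 48.5%, 17.0% and 8.39% on the mouse arrays. The last 2 values were taken against miR-720, which held 17.7% of the signal at mouse lactation day 2 and 21.3% at lactation day 10, against 4.91% to 8.15% on the other 3 mouse arrays. In sheep, miR-720 held 10.5% in lactation and 1.70% to 6.20% before it. With the brightest other miRNA of each array left out of the sum, the share of miR-21 was still 2.27% at mouse lactation day 10 against 8.13% in virgin mice, and 5.93% in sheep lactation against 7.76% to 13.2% on the other sheep arrays.

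**Figure D3:**
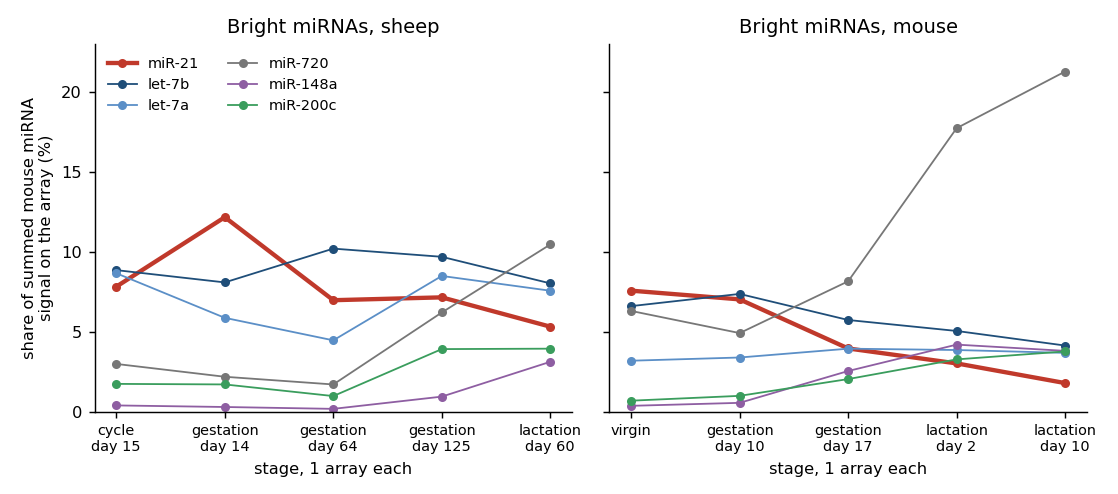
Share of the summed mouse miRNA signal (%, vertical axis) at each stage (horizontal axis, 1 array each) for miR-21 and 5 other miRNAs that were among the brightest. In mouse miR-21 runs from 7.57% to 1.79% and miR-720 from 6.30% to 21.3%, and in sheep miR-21 leads at gestation day 14 with 12.2%.

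Lactation had a lower level of miR-21 than gestation on average, but the difference did not pass the threshold after adjustment. The mean level was 1.57 ± 0.60 (SD, n = 3) in lactation, 2.54 ± 0.59 (SD, n = 5) in gestation and 2.63 ± 0.006 (SD, n = 2) in animals not pregnant. The sheep lactation array, at 2.19, lay above mouse gestation day 17, so the classes overlap when the species are pooled. Under the main scaling they do not overlap within either species, but in the authors' deposited table they do. There, sheep lactation, at 6498, lay above sheep gestation days 14 and 64, at 6330 and 4136. Mouse lactation days 2 and 10, at 2193 and 2431, lay above mouse gestation day 17, at 1729. In a limma model with species and stage class, lactation differed from gestation by -0.79 ± 0.30 on the log2 scale (1.73-fold lower, 95% interval -1.52 to -0.07, limma adjusted p = 0.243). limma called 6 of the 213 miRNAs tested in this comparison, or 2.82%, and miR-21 was not among them. Within sheep the difference was -0.68 and within mouse -0.80.

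Against animals not pregnant, lactation differed by -0.95 ± 0.37 (95% interval -1.83 to -0.07, limma adjusted p = 0.243), in a comparison where 3.76% of the miRNAs tested were called. This difference was -0.45 within sheep and -1.37 within mouse. With the slide as a term in the model it was -0.45, and on slide 1 alone -0.34. Without mouse virgin replicate 1, it was -0.50, so it rests in good part on that array. Gestation differed from animals not pregnant by -0.16 ± 0.34 (95% interval -0.96 to 0.65, limma adjusted p = 1), with 0.469% called, and the value was 0.23 within sheep and -0.57 within mouse.

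The comparison of lactation with gestation moved to -0.51 ± 0.24 (limma adjusted p = 0.440) with the slide as a term and to -0.53 on slide 1 alone. Slide 2 held only the mouse virgin and gestation day 10 arrays, so the slide cannot be told apart from these early mouse stages. Without scaling the difference between lactation and gestation was -1.89 (limma adjusted p = 0.0320). The median over all miRNAs was -0.67 in that setting, and miR-21 relative to it was at -1.23. Signal as a whole was lowest in lactation, where the percentile used for scaling was a signal of 788 in sheep and of 394 and 246 in mouse, against 939 to 1998 and 598 to 937 on the other arrays of each species. The part of this loss of signal in the result was not tested.

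The level of miR-21 in sheep was 0.67 ± 0.26 above that in mouse after adjustment for stage class (95% interval 0.04 to 1.29, limma adjusted p = 0.124). The unadjusted means were 1.86 ± 0.69 (SD, n = 5) in mouse and 2.68 ± 0.38 (SD, n = 5) in sheep. The species overlapped, since virgin and gestation day 10 mice lay above sheep in lactation. Between the species 21.6% of the miRNAs tested were called, and miR-21 was not. With the slide as a term the difference was 1.07 ± 0.24 (limma adjusted p = 0.0313), on slide 1 alone it was 1.09 (limma adjusted p = 0.0614), and without scaling it was 1.81 (limma adjusted p = 0.00969), with a median of 0.69 over all miRNAs. As slide 2 held only virgin and gestation day 10 mice, the slide cannot be told apart from these mouse stages here either. The stages sampled in the 2 species are not matched by day.

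The change from gestation to lactation was 0.12 ± 0.63 more positive in sheep than in mouse (95% interval -1.56 to 1.81, limma adjusted p = 1). The interval spans differences of more than 2-fold either way, so these arrays do not show whether the species differ in it. In this comparison 0.939% of the miRNAs tested were called.

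**Figure D4:**
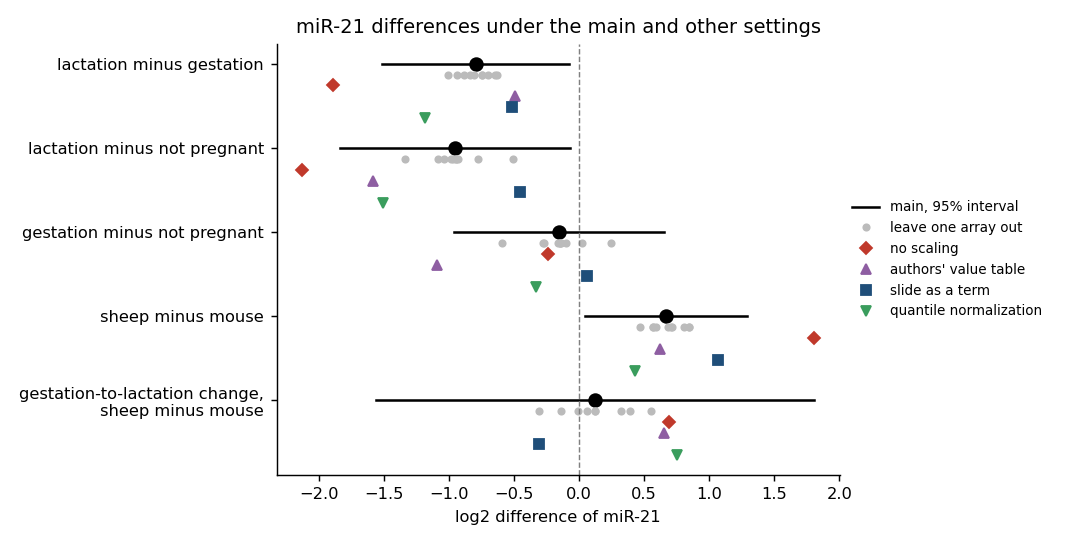
Difference in the log2 level of miR-21 (horizontal axis) for each of 5 comparisons (vertical axis), with the main estimate and its 95% interval in black and the values under other settings below it. Lactation minus gestation stays below 0 at -0.79 and from -1.89 to -0.49 under the other settings drawn, sheep minus mouse stays above 0, and gestation minus not pregnant and the difference between the species in the change to lactation fall on both sides of 0.

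Neither the partner strand of miR-21 nor its seed relative gave a usable signal. miR-21*, the passenger strand of the same hairpin, was marked as detected at sheep gestation days 14 and 64, with signals of 9.32 and 3.75, and on no other array. These are the days with the highest and the third-highest unscaled signal of miR-21. After scaling, miR-21* lay at the floor of -5.11 on all 10 arrays. The floor is a common lower limit set from the dimmest detected miRNAs. miR-590-5p, which has the same seed as miR-21 and can thus pair with the same sites, was detected on no array.

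The miRNAs whose course was most like that of miR-21 were miR-99a, miR-130a, miR-199b, miR-199b* and miR-322. Likeness was measured by Pearson's r of the log2 level, centred within each species, over the 10 arrays, which share slides, scaling and 1 RNA sample per stage. Of 93 miRNAs detected on all arrays, 40 had r above 0, the median was -0.09 and none passed 0.9. The r was 0.89 for miR-99a, 0.89 for miR-130a, 0.87 for miR-199b, 0.86 for miR-199b* and 0.83 for miR-322. This order also depended on the values used. In the authors' deposited values r was highest for miR-425 and miR-342-3p, both at 0.95, and the 5 named took places 9, 3, 18, 22 and 5, with r from 0.85 to 0.94. Without centring, r was 0.019 for miR-130a, -0.036 for miR-199b* and -0.46 for miR-322. miR-99a represses mTOR and the IGF1 receptor, miR-130a is known from vessels and blood formation, miR-199b is a miRNA of connective tissue, and miR-322 is the mouse name of miR-424.

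The level of miR-99a was 0.43 in sheep in cycle, then 0.31, 0.41 and -0.13 over the 3 gestation days, and -1.22 in lactation. In mouse, it was 0.01 in virgin gland, 0.02 and -1.04 in gestation, and -2.25 and -2.95 in lactation. It was thus lowest in lactation in both species, as miR-21 was, but had no peak at sheep gestation day 14. miR-322 lay at or near the floor on all 5 sheep arrays, so its likeness comes from mouse alone.

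miR-30b, miR-146b and miR-212 ran most against miR-21, with r of -0.92, -0.88 and -0.85. miR-146b, induced by NF-kB and a brake on innate immune signalling, was -4.91 in sheep in cycle, -4.35, -5.11 and -5.11 in gestation and -1.39 in lactation. In mouse, it was -3.83 in virgin gland, -3.12 and -0.85 in gestation, and 0.43 and 1.95 in lactation. In mouse it was higher at each stage than at the stage before, the reverse of miR-21, and in sheep it stood apart in lactation. miR-30b ran from -1.86 to -1.19 in sheep and from -3.54 to -1.03 in mouse, while miR-212 lay at the floor on 3 sheep arrays. In the authors' deposited values, scaled in another way, r with miR-21 was -0.02 for miR-30b, -0.45 for miR-146b and 0.11 for miR-212. Without scaling it was -0.07 for miR-30b, -0.65 for miR-146b and -0.52 for miR-212. With quantile normalization it was -0.95 for miR-30b, -0.85 for miR-146b and -0.83 for miR-212. The opposite courses of miR-30b and miR-212 thus depended on the scaling, while that of miR-146b changed in strength but kept its direction.

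**Figure D5:**
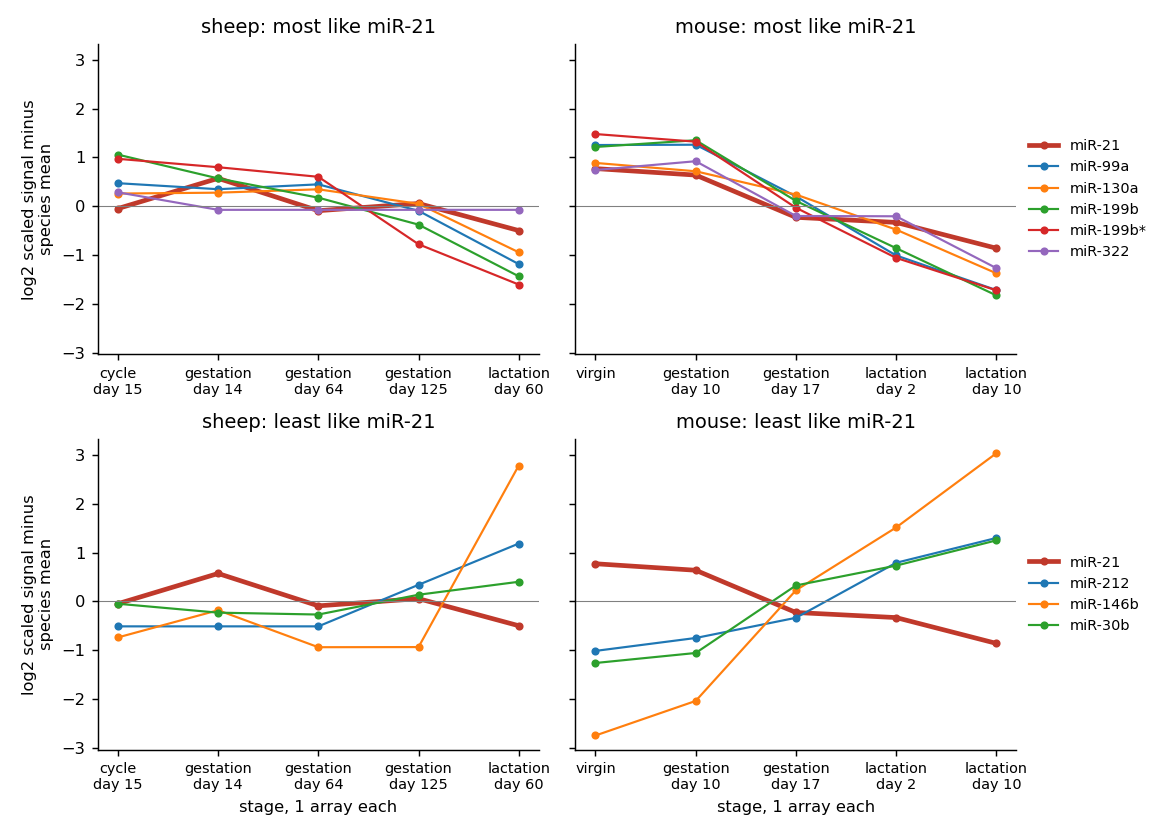
Log2 scaled signal minus the mean of the species (vertical axis) at each stage (horizontal axis, 1 array each), for miR-21 with the 5 miRNAs most like it (top) and the 3 least like it (bottom), in sheep (left) and mouse (right). The top miRNAs run down with miR-21 across the mouse stages, where miR-146b runs up from -3.83 to 1.95 before centring. In sheep, miR-21 is highest at gestation day 14 and none of the top 5 is.

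Among miRNAs that inflammatory or TGF-beta signals are known to induce, as they do miR-21, none was called between gestation and lactation. Of 10 listed, 8 were on the array and 7 were tested, with 0 called in this comparison, where 2.82% of all miRNAs tested were, and a median difference of -0.13, against -0.07 over the 185 tested miRNAs with signal above the floor. The 3 of them detected on all arrays moved apart, as the difference was 3.40 for miR-146b (limma adjusted p = 0.0502), 1.42 for miR-181b (adjusted p = 0.526) and -2.30 for miR-199a-5p (adjusted p = 0.118). miR-181b is a STAT3 target that represses CYLD. miR-199a-5p lies in a connective tissue cluster with miR-214. Against animals not pregnant, miR-146b was called, 1 of 7 members where 3.76% of all tested were, higher in lactation by 4.30 ± 0.83 (limma adjusted p = 0.0434), and sheep minus mouse was -2.41 for it (limma adjusted p = 0.0271). In the comparison with animals not pregnant, limma called 0 of the 213 miRNAs, and so not miR-146b, with quantile normalization, normexp, the brightest probe or the authors' deposited table, where 39, 21, 41 and 31 had an unadjusted p under 0.05. It called none as higher in lactation, and so again not miR-146b, with the percentile over all miRNAs, no scaling, no filter, slide as a term or slide 1 alone. miR-146a was called in the difference between the species in the change to lactation, at 0.28 (limma adjusted p = 0.0199), but it was detected on 4 arrays. miR-155 lay at the floor on all 10.

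The miRNAs of the miR-183 cluster, which repress Pdcd4 as miR-21 does, were not called by limma. All 3 were tested, with 0 called in each of the 5 comparisons, where 0.469% to 21.6% of all miRNAs tested were, so a count of 0 among 3 says nothing particular of them. From gestation to lactation the difference was 0.84 ± 1.18 for miR-96, the member detected on all arrays, and the median of the 3 was 0.61. Their summed share of the signal was 0.719% and 0.753% in mouse lactation, 0.207% and 0.517% in mouse gestation and 0.0734% in virgin mice. In sheep it was 0.0182% in lactation, at most 0.149% in gestation and 0.363% in cycle. All 3 lay at the floor in sheep lactation and at sheep gestation day 64, and 2 of them at sheep gestation day 14 and in virgin mice.

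Shares of marker miRNAs of the cell types of the gland also differed between stages, although most single markers were not called. The 6 epithelial miRNAs, the miR-200 family and miR-205, were all detected on all arrays, and their summed share was 2.20% in virgin mice, 3.76% and 8.34% in mouse gestation and 11.3% and 12.7% in lactation. In sheep, it was 6.64% in cycle, 6.04%, 4.45% and 12.4% in gestation and 11.9% in lactation. In mouse this share was thus higher where miR-21 was lower, whereas in sheep it was as high at gestation day 125 as in lactation while miR-21 stood at 2.74 and 2.19. None of the 6 was called between lactation and gestation, where 2.82% of all miRNAs tested were, and miR-205 was at -1.04 against a list median of 1.42.

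The 5 fibroblast and smooth muscle miRNAs on the array had a summed share of 3.26% in virgin mice, 3.70% and 2.23% in mouse gestation and 0.982% and 0.589% in lactation. In sheep, the share was 3.78% in cycle, 3.46%, 3.21% and 1.30% in gestation and 0.971% in lactation. In both species it was lowest in lactation, as miR-21 was. Between lactation and gestation the differences of all 5 were negative, with a median of -1.84. They ran from -2.30 for miR-199a-5p to -0.13 for miR-143. None was called, where 2.82% of all miRNAs tested were. Between lactation and animals not pregnant, 2 of the 5 were called, where 3.76% of all miRNAs tested were. miR-199b, chosen above for its likeness to miR-21 and brighter on the array than the other members in virgin mice, was at -2.57 ± 0.49 (limma adjusted p = 0.0434). miR-214, at the floor on 2 arrays, was at -2.99 ± 0.58 (limma adjusted p = 0.0434). miR-199a-5p was at -2.55 (limma adjusted p = 0.138), whereas miR-143 was at 0.56 and miR-145 at 0.02 (limma adjusted p = 0.538 and 1). Neither call held with quantile normalization, normexp, the brightest probe or the authors' deposited table, where limma called no miRNA in this comparison. From 3 to 5 of these 5 were detected on an array. The part of epithelial and stromal content in the course of miR-21 was not tested.

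The 5 leukocyte miRNAs, 2 to 5 of them detected on an array, had a summed share of 0.278% in sheep lactation against 0.807% to 1.39% on the other sheep arrays. In mouse, the share was 0.271% and 0.415% in lactation against 0.647% to 0.759% before it. The members did not move together in mouse, where miR-223 ran from -1.36 in virgin gland to -2.98 at lactation day 10. miR-142-3p was -2.98 in virgin gland, -2.80 and -1.97 in gestation, and -2.25 and -2.51 in lactation. In sheep, miR-223 lay at the floor on 3 arrays. miR-155 was at the floor on all arrays and miR-150 on 8. Striated muscle miRNAs held 2.37% in virgin mice and 0.960% at mouse gestation day 17, and at most 0.107% on the other 8 arrays. The 3 red cell miRNAs held 7.30% in virgin mice, 2.20% to 3.54% on the other mouse arrays and at most 0.724% in sheep, where miR-144 and miR-486 lay at the floor on every array. The 2 endothelial miRNAs held 1.43% to 3.01% in sheep and 1.26% to 2.76% in mouse, with miR-126-5p at the floor on all 10 arrays. The 5 adipocyte-associated miRNAs held 1.53% to 2.15% in sheep and 2.57% to 3.49% in mouse, with the highest value of each species in lactation. Between lactation and gestation only miR-103 of the 5 was called (1.01 ± 0.18, limma adjusted p = 0.0486), where 2.82% of all miRNAs tested were. miR-107 was at 1.13, but miR-193, miR-193b and miR-378 were at -0.06, -0.27 and -0.10. limma called no miRNA in this comparison, and so not miR-103, with the percentile over all miRNAs, normexp, the brightest probe, the authors' deposited table, no filter, slide as a term or slide 1 alone. The part of these cell types in the level of miR-21 was not tested.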

How the data were processed

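The deposited scanner files hold intensity values on a linear scale, already background-subtracted and detrended within each array per the file headers, with no normalization between arrays. The headers name Agilent Feature Extraction 10.5.1.1 and the submitters' processing notes name version 9.5. The other columns used were 0 or 1 flags, also per the file headers. The authors' deposited value table is an intensity too. It equalled the scanner software's total signal times 1 constant per array, 0.275 to 3.73 (within 0.1% for 98.65 to 100% of miRNAs with a total above 50). Its column medians in stage order were -0.603, 0.303, 0.26, -3.94 and -2.80 in sheep, and -11.4, -5.23, 0.76, -2.35 and -11.6 in mouse. The basis of the constants is not stated, so its centring and scale are unknown.

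Outlier spots were left out, spots averaged per probe and probes per miRNA, and signals scaled as described above. Values under 0.029 (-5.11 on the log2 scale), the highest over arrays of the 5th percentile of detected miRNAs, were set to that floor. The 213 miRNAs detected on at least 3 arrays were fitted with limma 3.58.1 in R 4.3.3 (lmFit, eBayes), with Benjamini-Hochberg adjustment over all 213 and a threshold of 0.05. On simulated data of this size, the model for lactation against gestation recovered all of 40 changes of 2 on the log2 scale. The simulated noise was smaller than the spread of miR-21 within sheep gestation, mouse gestation or mouse lactation (SD 0.35, 0.61 and 0.37). The simulation thus checks the model and does not show how often such changes are found at the spread of the real arrays. Shares used all 567 miRNAs with negative signals set to 0, and exact permutation tests (SciPy 1.17.1). The arrays detected 125 to 208 miRNAs each, and the number of arrays limits the precision.

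The choice to follow miR-21, and the lists of other miRNAs, were made with earlier results of these data known; on the arrays miR-21 was found by name. Named miRNAs are the 5 brightest of each array, the 5 most and 3 least like miR-21, its seed relative and passenger strand, and members of the lists of induced and Pdcd4-repressing miRNAs that were called or detected on all arrays. miR-155 and the members named of the cell type lists, as well as miR-425 and miR-342-3p, fall outside this rule and were chosen after their values were seen. A further list of miRNAs is not reported here. Mature sequences were not used here. Alternatives covered the scaling, background, probes, floor, filter, slide and arrays, and the closing section gives their effect.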

Additional observations from a re-analysis of the deposited data

How the results depend on the processing

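Lactation minus gestation, lactation minus not pregnant and sheep minus mouse kept their direction under all alternatives run. Settings that passed the threshold by limma were no scaling (lactation minus gestation -1.89, sheep minus mouse 1.81) and slide as a term (sheep minus mouse 1.07). Gestation minus not pregnant turned to 0.063 with slide as a term, 0.19 on slide 1 alone and 0.23 in sheep alone. The difference between the species in the change to lactation turned to -0.018 with the brightest probe and to -0.31 with slide as a term or on slide 1 alone. Leaving out 1 array at a time gave -1.01 to -0.63 for lactation minus gestation, -1.34 to -0.50 for lactation minus not pregnant, -0.59 to 0.24 for gestation minus not pregnant (0.02 without mouse gestation replicate 2, 0.24 without mouse virgin replicate 1), 0.47 to 0.84 for sheep minus mouse, and -0.31 to 0.56 for the difference in the change (-0.01 without sheep gestation replicate 3, -0.31 without mouse gestation replicate 1, -0.14 without mouse lactation replicate 1). For the share, in percentage points, it gave 2.14 to 3.94 for sheep minus mouse, -4.03 to -2.42 for lactation minus gestation and -4.05 to -2.89 for lactation minus other stages, and no share test passed after adjustment under any alternative. Without sheep lactation replicate 1, the difference in the change and both share tests of lactation could not be fitted. The step from cycle to sheep gestation day 14 turned to -0.20 in the authors' table. Sheep gestation day 64 to 125 turned to -0.59 without scaling and -0.055 with the shorter probe. Virgin to mouse gestation day 10 turned to 0.10 without scaling. The step into mouse lactation turned to 0.34 in the authors' table and 0.10 with the brightest probe, and lactation day 2 to 10 to 0.15 in the authors' table. Likeness turned to -0.036 for miR-199b* and -0.46 for miR-322 without centring, and to -0.067 for miR-322 in sheep alone. With normexp, the share in sheep in cycle was 3.47%, below the 3.51% in sheep lactation. The cause of these changes was not tested.

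Over all alternatives, limma called 0 to 24, 0 to 29, 0 to 7, 14 to 95 and 0 to 19 miRNAs in the 5 comparisons, in the order of the ranges from leaving out arrays, against 6, 8, 1, 46 and 2. A floor 4 times lower gave 24, 29, 0, 95 and 0, no scaling 22, 9, 0, 87 and 1, and quantile normalization 1, 0, 0, 47 and 9. Between the species the calls were 18 higher and 28 lower, against 69 and 18 without scaling, 23 and 23 with the percentile over all miRNAs, 24 and 23 with quantile normalization, 5 and 13 with normexp and 3 and 11 in the authors' table. Between lactation and gestation they were 3 and 3, against 1 and 21 without scaling. Comparisons with 0 calls had at least 2 miRNAs at an unadjusted p under 0.05. No paired analysis was possible because no animal or replicate number in the labels links arrays of different stages.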
